A study of Mus musculus with 9 samples.

Results

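Sphk1, S1pr3 and Ptgs2 are genes of lipid mediator signalling, and they were followed here in the small intestinal muscularis externa (ME), which comprises the smooth muscle coat of the gut and the myenteric ganglia within it. They were taken by gene symbol from a gliosis table that the study assembled (155 transcripts) and from a table of changed genes (502 transcripts), and they are 3 of the 531 genes that both tables hold together. Each is listed with 1 transcript, and these 3 are among 634 transcripts. All 3 stood in the gliosis table, and Sphk1 also stood in the table of changed genes, with identical values. The mice were of the BL6 strain and 8 to 12 weeks old, and 9 RNA-Seq libraries were made from the ME, with 3 in each of 3 groups. It is not stated in the labels if a library stands for 1 mouse. IM3h and IM24h mice had intestinal manipulation (IM), a surgical handling of the bowel used as a model of postoperative ileus, and were examined 3 h and 24 h later. The Control mice are sham operated according to the sample labels but naive according to the table headers and the paper, and the conflict was not resolved. If they were naive, the operation itself and the manipulation cannot be told apart. The IM3h libraries carry another number series in their labels than the other 6, so that series and the time of 3 h cannot be told apart.

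Sphingosine-1-phosphate (S1P) is made inside cells from the membrane lipid sphingosine by sphingosine kinases, of which Sphk1 encodes one, and acts on a family of G protein-coupled receptors that includes S1pr3. S1P is known for directing lymphocyte traffic and for setting the tone of smooth muscle. Ptgs2 encodes the inducible cyclooxygenase, which turns arachidonic acid into the precursor of all prostaglandins and thromboxane, and in rodents prostaglandins made by this enzyme in the inflamed ME are known to weaken contractions. In work on brain astrocytes, Sphk1 and Ptgs2 are used as markers of the A2 reactive state and S1pr3 as a marker of reactive astrocytes of any kind (pan-reactive).

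The 3′ untranslated regions (UTRs) are shown first because QuantSeq 3′ libraries sample the ends of polyadenylated transcripts. In the GENCODE transcript matched to Ptgs2 NM_011198, on chromosome 1, the 3′ UTR is 2445 bases long and holds 14 copies of ATTTA, the core of AU-rich elements, which are known to shorten the life of many mRNAs. Of 20659 mouse genes, 97.0% had fewer copies in their longest 3′ UTR, and the median was 1. Per kilobase Ptgs2 had 5.73 copies, against a median of 1.28. Bases 12 to 41 after the Ptgs2 stop codon hold 4 copies, 3 of which overlap, in capitals:
Ptgs2 3′ UTR: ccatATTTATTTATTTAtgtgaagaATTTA
S1pr3 had 3 copies in 2876 bases (1.04 per kilobase) and Sphk1 had none in 284 bases. Of all genes, 66.3% had at least 1, but their median 3′ UTR length of 989 bases is longer than that of Sphk1. A copy count describes the letters alone, and mRNA life was not measured.

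Promoter windows of the 3 genes are shown as a description of sequence, and their part in the measured levels was not tested. They were taken from RefSeq (GRCm38.p6), which had windows for all 3 genes, and run from 250 bases before an annotated start site to 50 bases from it on. All lie on the plus strand, positions count the start site as 0, and capitals mark letter matches on either strand to one of 8 motifs. The motifs searched were the cyclic AMP response element (CRE) core TGACGT, the E-box CACGTG, the AP-1 site TGANTCA, the C/EBP palindrome TTGCGCAA, the GC box GGGCGG, the TATA box TATAAA, the NF-kB consensus and the CArG box.
Ptgs2, chr1:150099781-150100080: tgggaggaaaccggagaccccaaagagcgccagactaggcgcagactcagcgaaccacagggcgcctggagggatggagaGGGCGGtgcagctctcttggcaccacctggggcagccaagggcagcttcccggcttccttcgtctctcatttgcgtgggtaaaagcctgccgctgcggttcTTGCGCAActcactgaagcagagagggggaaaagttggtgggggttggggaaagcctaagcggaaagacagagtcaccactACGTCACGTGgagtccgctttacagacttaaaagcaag
S1pr3, chr13:51408368-51408667: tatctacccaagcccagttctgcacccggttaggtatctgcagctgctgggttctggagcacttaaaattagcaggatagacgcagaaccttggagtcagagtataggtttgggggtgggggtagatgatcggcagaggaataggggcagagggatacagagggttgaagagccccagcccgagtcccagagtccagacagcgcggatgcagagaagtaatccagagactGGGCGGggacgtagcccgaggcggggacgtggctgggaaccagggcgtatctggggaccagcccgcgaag
Sphk1, chr11:116532201-116532500: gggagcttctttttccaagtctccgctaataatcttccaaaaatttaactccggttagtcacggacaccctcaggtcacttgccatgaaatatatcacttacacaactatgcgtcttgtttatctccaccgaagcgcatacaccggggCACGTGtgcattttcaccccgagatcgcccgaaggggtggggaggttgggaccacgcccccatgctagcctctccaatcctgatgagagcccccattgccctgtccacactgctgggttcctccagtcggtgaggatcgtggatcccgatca
The start site of the Ptgs2 window is the first base of the matched transcript. The window holds a CRE core at 12 to 17 that overlaps an E-box at 16 to 21, a C/EBP palindrome at -69 to -62 and a GC box at -170 to -165. Among 32851 mouse promoter windows of this length, the C/EBP palindrome was found in 0.183%, the CRE core in 7.51%, the E-box in 7.15% and the GC box in 35.7%. The S1pr3 window, whose start site lies 21 bases upstream of the start of the matched transcript, holds a GC box at -20 to -15. Sphk1 has 5 windows, and the one printed is the nearest to the listed transcript but its start site lies 2289 bases upstream of that transcript's start. That window holds an E-box at -102 to -97. Other Sphk1 windows hold a TATA box (found in 13.6% of all windows), an NF-kB consensus (8.46%) and an AP-1 site (7.81%), and 1.63% of all windows hold a CArG box, which none of the windows of these 3 genes does. These shares are for single windows, whereas Sphk1 had 5 to search, some of them overlapping. A letter match is not a site of binding.

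Values are the authors' group means of normalized counts, each over 3 libraries. Because no values of single libraries were used, no spread, test or p-value stands behind any difference, the depth of each library is unknown, and a change of 2-fold or more between group means is a threshold of size only. In whole tissue, a larger number of cells expressing a gene and more RNA per cell cannot be told apart.

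Sphk1 (NM_011451), which makes the ligand S1P, was low in Control ME and high early after IM. Its mean was 1.81 normalized counts in Control, 57.7 in IM3h and 15.2 in IM24h. It was thus 31.9-fold above Control at 3 h and still 8.41-fold above it at 24 h, while the 24 h mean was 3.80-fold below the 3 h mean. Of the difference between IM3h and Control, 24.0% was left at 24 h. Because the Control mean is low, the size of the fold depends on it, and with 1 count added to each mean the 3 h fold was 20.9. The 24 h fold was 2.97 with 5 counts added, and scaling by the median of the listed transcripts gave folds of 21.0 at 3 h and 2.95 at 24 h. Most listed transcripts were selected for change, so this scaling is not neutral. In the gliosis table, 33.5% of transcripts were at least 2-fold higher in IM3h than in Control, 49.7% were so in IM24h, and 15.5% were at least 2-fold lower in IM24h than in IM3h. Sphk1 met all 3 of these criteria, with the 8th highest fold of 155 at 3 h and the 14th at 24 h. In the table of changed genes, which holds only transcripts that differ by 2-fold or more in every comparison, the same shares were 55.4%, 80.7% and 33.3%, and Sphk1 had the 9th highest fold of 502 at 3 h but the 99th at 24 h. GENCODE lists 16 Sphk1 transcripts, 7 others of which end within 100 bases of the listed one, so reads from the 3′ end could belong to any of these isoforms.

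S1pr3 (NM_010101), the receptor, was level across the groups. Its mean was 17.5 normalized counts in Control, 17.2 in IM3h and 18.9 in IM24h. The folds were 0.983 at 3 h and 1.08 at 24 h against Control, and 1.10 for IM24h against IM3h. Its highest mean was 1.10 times its lowest, the smallest such ratio of all 155 transcripts in the gliosis table. S1pr3 met none of the 3 criteria of 2-fold. When the groups were scaled by the median of the listed transcripts, the S1pr3 folds were 0.645 at 3 h and 0.378 at 24 h. Of the 634 listed transcripts, 460 were at least 2-fold above Control at 24 h, so this scaling lowers any level gene. Without values per library the level means do not show that its expression was equal in the groups. GENCODE lists 1 transcript for S1pr3.

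Ptgs2 (NM_011198), the cyclooxygenase, was higher than Control at both times, with its highest mean at 3 h. Its mean was 8.77 normalized counts in Control, 50.6 in IM3h and 28.1 in IM24h. The fold against Control was 5.77 at 3 h and 3.20 at 24 h. From 3 h to 24 h the mean was 1.80-fold lower, which is short of 2-fold, and 46.1% of the difference between IM3h and Control was left at 24 h. Scaling by the median of the listed transcripts gave a fold of 1.12 at 24 h, so that 2-fold was no longer reached, while the 3 h fold of 3.79 stayed above it. That scaling is not neutral, because most listed transcripts were selected for change. In the gliosis table Ptgs2 had the 28th highest fold of 155 at 3 h and the 55th at 24 h. The absence of Ptgs2 and S1pr3 from the table of changed genes goes with its rule, since Ptgs2 misses 2-fold in 1 comparison and S1pr3 in all 3.

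**Figure D1:**
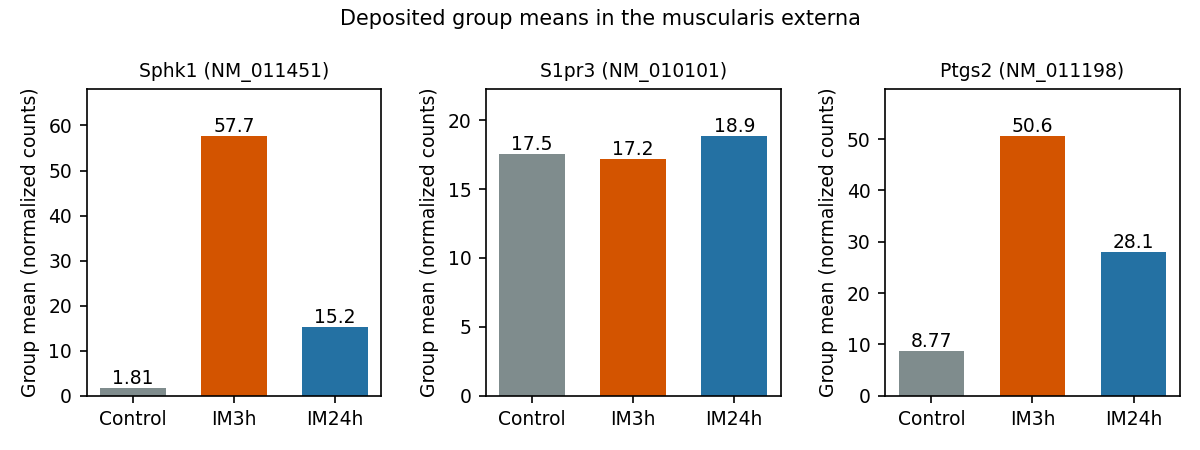
Bars give the deposited group means (normalized counts, axis from 0, a scale of its own in each panel) of Sphk1, S1pr3 and Ptgs2 in Control, IM3h and IM24h, each over 3 libraries, with no error bars because values per library were not used. Sphk1 (1.81, 57.7 and 15.2) and Ptgs2 (8.77, 50.6 and 28.1) are highest in IM3h, and S1pr3 lies between 17.2 and 18.9.

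Kinase and cyclooxygenase thus shared an order of the groups (IM3h, then IM24h, then Control), whereas the receptor did not. The Sphk1 fold was 5.53 times the Ptgs2 fold at 3 h and 2.63 times at 24 h. A highest mean in IM3h was not the usual case in the tables, where 144 of 531 genes had it and 328 had their highest mean in IM24h. How many genes shared the full order was not counted. The median fold over the 531 genes was 1.71 at 3 h, 2.48 at 24 h and 2.64 for IM24h against IM3h. In the gliosis table, in which no rule on fold was seen, 29.4% of the genes had their highest mean in IM3h and 54.1% had it in IM24h.

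Few other genes of these pathways are listed. Of 42 genes of S1P and ceramide metabolism, receptors and transport, the tables hold Sphk1 and S1pr3, and of 41 genes of prostaglandin, thromboxane and leukotriene metabolism and their receptors they hold Ptgs2 and Tbxa2r. The remaining kinases, receptors, prostaglandin synthases and prostaglandin receptors of these lists were not analysed here, and their absence from the tables does not show that they were level. Tbxa2r (NM_001277265), the thromboxane receptor, is in the table of changed genes and went the other way from Ptgs2. Its mean was 9.09 normalized counts in Control, 1.13 in IM3h and 3.17 in IM24h, which is 8.05-fold lower than Control at 3 h and 2.87-fold lower at 24 h. At 24 h it was 2.81-fold above its 3 h mean. The IM3h mean of Tbxa2r is low, so the size of the folds that use it depends on it. Passing 2-fold in every comparison was a condition of being in the table of changed genes.

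Among the A2 astrocyte markers, 9 of 12 are listed, and Sphk1 and Ptgs2 are part of that count. Means in brackets are normalized counts in the order Control, IM3h and IM24h. At 3 h, 7 of the 9 were at least 2-fold above Control and none was as far below it, with a median fold of 5.48, and at 24 h 6 were above, with a median of 2.62. Over all 531 genes, 259 were at least 2-fold above Control at 3 h and 394 at 24 h. Between 3 h and 24 h, 3 were at least 2-fold lower and none higher, with a median fold of 0.676, against 148 lower and 329 higher of the 531 genes. The 3 that were lower are Sphk1, Ptx3, a secreted pentraxin, and Emp1, an epithelial membrane protein. The Emp1 mean was 13.1 in Control, 74.7 in IM3h and 20.0 in IM24h, so that its fold of 5.70 at 3 h is close to that of Ptgs2 (5.77), but at 24 h it was 1.52. Cd14, the co-receptor for endotoxin, had means of 1.99, 10.9 and 7.38, folds of 5.48 and 3.71 against Control. S100a10 (68.5, 140 and 179) and Tm4sf1 (18.9, 43.2 and 42.2) passed 2-fold at both times, while the cytokine gene Clcf1 (5.26, 7.54 and 7.80) and Cd109 (5.06, 4.95 and 6.81) did not at either. Within this list Sphk1 had the second highest fold at 3 h and at 24 h, after Ptx3, whose Control mean of 0.210 is too low for its fold to be read.

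Among the pan-reactive markers, 12 of 13 are listed, and S1pr3 had the most level means of them. At 24 h, 11 of the 12 were at least 2-fold above Control (median fold over the 12 of 5.87) and S1pr3 alone was not. At 3 h, 8 of the 12 were above (median 6.78), and S1pr3 (0.983), Hspb1 (1.80), Vim (1.51) and Cp, the ceruloplasmin gene (means of 7.04, 10.6 and 15.3), were within 2-fold. The highest folds at 24 h were those of Lcn2, an iron-siderophore binding protein (0.573, 8.79 and 192), Timp1, a metalloprotease inhibitor (0.994, 8.42 and 110), and Serpina3n, a protease inhibitor (3.27, 41.2 and 274). The Control means of Lcn2 and Timp1 are low, so the size of their folds depends on them. Cd44, a hyaluronan receptor (38.3, 221 and 195), Osmr, the oncostatin M receptor (1.95, 15.1 and 11.8), Steap4 (3.32, 35.2 and 13.7) and the chemokine gene Cxcl10 (0.817, 15.0 and 5.36) had their highest mean in IM3h, as Sphk1 and Ptgs2 did. Gfap, the glial filament gene, had means of 2.79, 11.3 and 25.2. Of the A1 markers 8 of 12 are listed, with 2 at least 2-fold above Control at 3 h (median fold 1.28) and 3 at 24 h (median 1.51). Over all 531 genes the counts were 259 at 3 h (median 1.71) and 394 at 24 h (median 2.48). Of these genes, 444 are in the table of changed genes, which holds only transcripts past 2-fold. In the gliosis table the shares were 33.5% of transcripts at 3 h (median fold 1.31) and 49.7% at 24 h (median 1.96). The A1 median at 3 h was close to the gliosis median, so how far the A1 markers lay below depends on the genes compared. The 2 A1 markers above Control at 3 h were Srgn, a proteoglycan core protein (2.71, 13.0 and 47.6), and Fkbp5, a glucocorticoid-responsive gene (7.95, 34.9 and 59.4). Psmb8 joined them at 24 h (12.8, 17.1 and 45.2). H2-D1, Serping1, Amigo2 and Ggta1 were within 2-fold of Control at both times, and Fbln5 was 2.04-fold lower at 3 h. The highest mean was in IM3h for 6 of 9 A2, 4 of 12 pan-reactive and 1 of 8 A1 markers. It was there for 27.1% of all 531 genes and 29.4% of the genes in the gliosis table. The pan-reactive count is near these shares, and all 3 lists are short. These lists come from astrocytes, and whether enteric glia or other cells carried the RNA was not tested.

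**Figure D2:**
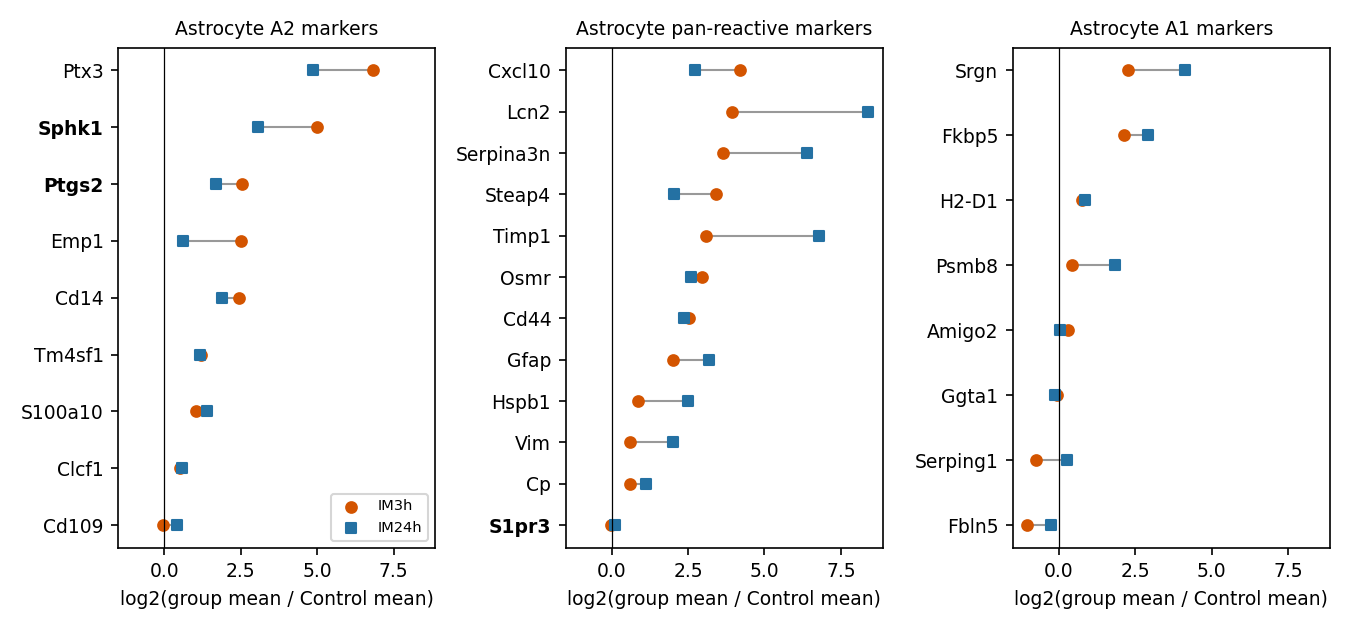
Each row is a listed astrocyte marker gene, and the horizontal axis gives the log2 ratio of its IM3h (circles) or IM24h (squares) group mean to its Control mean, with no error bars because values per library were not used. Sphk1 and Ptgs2, in bold among the A2 markers, lie right of 0 with the 3 h value farther out, and S1pr3, in bold among the pan-reactive markers, lies at 0 at both times.

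The genes whose profile was most like each of the 3 were found among the 205 genes whose total reached 90 normalized counts, by the distance between the log2 changes from Control at 3 h and 24 h (with 1 count added to each mean). Nearest to Sphk1 were Ptx3 (distance 0.041), Hspa1b (0.167), Maff, a small basic leucine zipper factor (0.229), Hmox1, the inducible heme oxygenase (0.360), and Hspa1a (0.677). Ptx3, Maff and Hmox1, like Sphk1 itself, reached the minimum total mainly through their IM3h means. Without the minimum total the same 5 genes were nearest to Sphk1, but with 5 counts added only 2 of them remained. With a Control mean of 0.210, the small distance of Ptx3 depends on the added count. The means of Hmox1 were 1.19, 49.1 and 14.9, and those of Maff were 1.77, 48.3 and 14.8. Hspa1a and Hspa1b, heat shock proteins, are near-identical copies, so their separate values are uncertain. Nearest to Ptgs2 were Nes, the intermediate filament nestin (0.174), Zfp36, an RNA-binding protein (0.234), Srxn1, a sulfiredoxin (0.270), Sipa1l2 (0.301) and Gnl3, a nucleolar protein (0.328). The means of Nes were 5.31, 28.5 and 17.9, and those of Zfp36 were 12.1, 77.0 and 33.9. Nes too was less than 2-fold lower at 24 h than at 3 h (1.60-fold), whereas Zfp36, Srxn1, Sipa1l2 and Gnl3 were 2.20-fold to 2.49-fold lower. Nearest to S1pr3 were Lamp1, a lysosomal membrane protein (0.359), Gap43, a protein of growing axons (0.361), Gcnt2 (0.408), Thbs2, a matricellular protein (0.446), and Adamts5, an aggrecanase (0.449). All were within 2-fold of Control at both times, which follows from their closeness to S1pr3. Without the minimum total, 1 of these 5 genes and 2 of the 5 nearest to Ptgs2 remained. Sphk1 and Ptgs2 themselves were 2.20 apart, and S1pr3 was 5.03 from Sphk1 and 2.84 from Ptgs2.

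**Figure D3:**
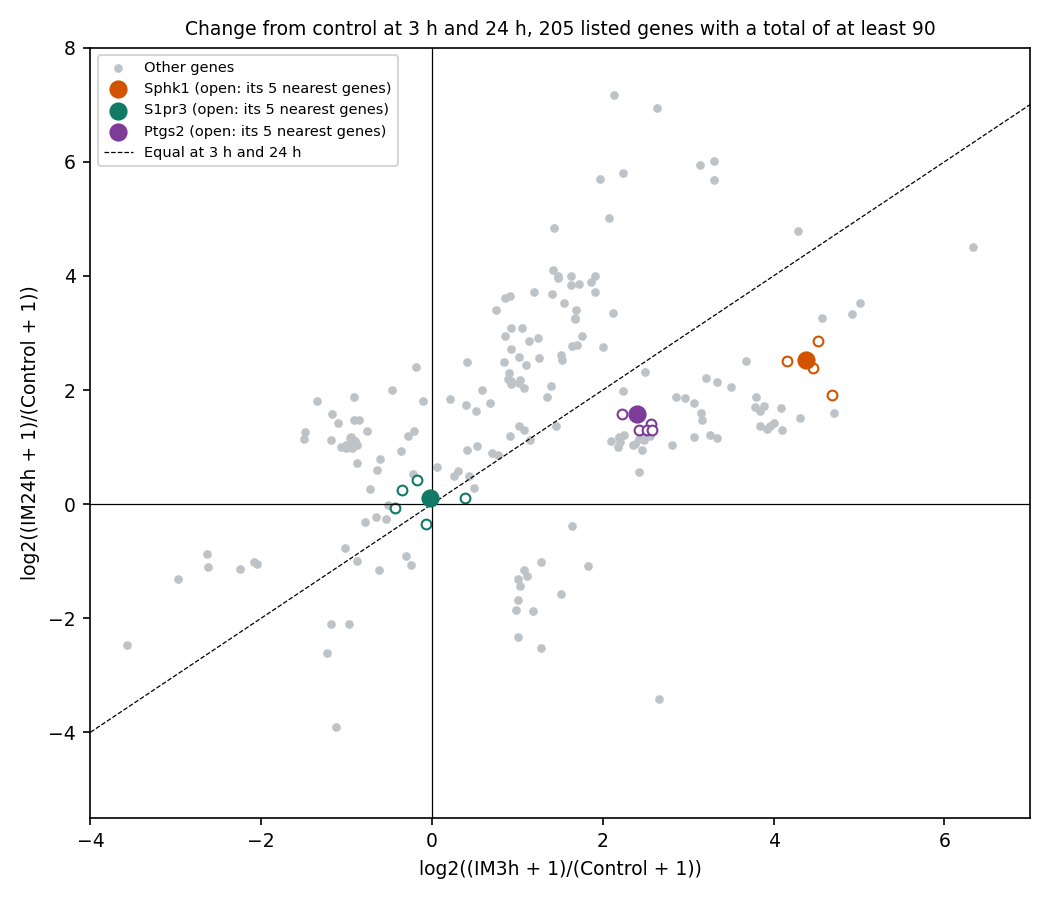
Each point is 1 of the 205 genes whose total reached 90 normalized counts, placed by its log2 change from Control at 3 h (horizontal) and 24 h (vertical) with 1 added to each group mean, and open circles mark the 5 genes nearest to each of Sphk1, S1pr3 and Ptgs2 (the circle of Ptx3 is hidden by the Sphk1 point). Sphk1 (4.39 and 2.53) and Ptgs2 lie below the dashed line of equal change, and S1pr3 lies near the origin.

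Marker genes of several cell types also differed between the groups, and their part in the values of Sphk1 and Ptgs2 was not tested. The 5 of 9 epithelial markers in the tables (Apoa1, Apoa4, Fabp2, Krt20 and Sis) were all highest in IM3h, like Sphk1 and Ptgs2 and 144 of all 531 genes. Their summed means were 224 normalized counts in Control, 485 in IM3h and 63.4 in IM24h. In contrast to Sphk1 and Ptgs2, all 5 were at least 2-fold below Control at 24 h, as were 97 of all 531 genes. The table of changed genes holds only transcripts past 2-fold in every comparison. For markers of any list that stand there, passing 2-fold was a condition of being listed, and markers that stayed level go unseen. The 7 of 14 monocyte and macrophage markers summed to 31.4, 48.2 and 248. At 3 h 5 of the 7 were at least 2-fold above Control (median fold 3.52), while Csf1r, the largest part of the Control sum, was lower (20.6, 7.52 and 74.6). At 24 h all 7 were at least 2-fold above Control, and 6 of the 7 were highest in IM24h, Cd14, which is also on the A2 list, being the exception. The 4 of 10 neutrophil markers summed to 3.80, 17.3 and 239, with Lcn2, which is also on the pan-reactive list, making up 192 of the last sum. At 3 h 3 of the 4 were at least 2-fold above Control, while Mmp9 was lower (3.03, 1.42 and 12.7). Beside these leukocyte counts, 259 of all 531 genes were at least 2-fold above Control at 3 h and 394 at 24 h. Of the same 531 genes, 328 had their highest mean in IM24h. Of 7 fibroblast markers the tables hold Dcn, with means of 506, 249 and 298. None of these markers was at 0 in any group. None of the 8 smooth muscle, 6 mesothelial or 7 endothelial markers chosen is in the tables, so these lists gave no check of the labelled tissue.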

How the data were processed

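RNA was extracted from the ME with a Qiagen kit, and a QuantSeq 3′ kit was used for library preparation. The submitters' processing notes name Partek. Its version, the aligner, the genome build and the normalization are not given in the sources used here. The authors deposited group means (LSMean) and totals of normalized counts per RefSeq transcript, used here as an expression signal. Each total was 3 times the sum of the 3 group means. The tables also hold the authors' p-values, FDR values, ratios and fold changes of their own comparisons, none of which was used, and a table of gene ontology terms was not used.

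Folds are ratios of group means, computed with Python 3.11.15, pandas 2.3.3 and numpy 2.4.6, and drawn with matplotlib 3.10.9. The scripts were tested on simulated data. Genes with several transcripts were represented by the one with the largest total. Named genes are all transcripts of Sphk1, S1pr3 and Ptgs2, every listed gene of the pathway and astrocyte marker lists, and the 5 nearest genes in profile to each of the 3. Cell type lists are given as counts and sums, with single names for markers in the tables. The enteric glia list is not reported here. The genes and lists were chosen with earlier results of these data known. UTRs were read from GENCODE vM21 transcripts matched by accession, leaving out 3′ UTRs under 50 bases. Alternatives were pseudocounts of 0.5, 1 and 5, fold thresholds of 1.5 and 4, a minimum total of 90, all transcripts in place of 1 per gene, the other table, and scaling by the median of listed transcripts.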

Additional observations from a re-analysis of the deposited data

How the results depend on the processing

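No paired analysis was possible because only group means were used, and for the same reason no library could be left out. Of the alternative values tried for 30 results, 86 stayed within 1.5 times of the main value, 22 moved further and none turned a change of 2-fold or more around. Most could not have done so. Adding the same count to both means cannot turn a fold around, and the other table held identical values. Counts, shares and nearest genes were not scored for it, which leaves the scaling of folds of at least 2-fold. Pseudocounts lowered the Sphk1 fold at 3 h from 31.9 to 20.9 (1 count) and 9.21 (5 counts), and that at 24 h from 8.41 to 2.97 (5 counts). The medians of the listed transcripts were 1.52 times (0.61 on the log2 scale) and 2.85 times (1.51) the Control median in IM3h and IM24h. Scaling by them gave Sphk1 folds of 21.0 at 3 h, 2.95 at 24 h and 0.141 for 24 h against 3 h. It gave 0.645, 0.378 and 0.586 for S1pr3, which is then lower than Control, and 3.79, 1.12 and 0.296 for Ptgs2, which is then within 2-fold of Control at 24 h. Most of the transcripts were selected for change, so this scaling is not neutral. With a threshold of 4-fold, 2 A2 markers were higher at 24 h, and 0 A2 and 0 pan-reactive markers were lower at 24 h than at 3 h. With a total of at least 90, 1 pan-reactive marker was, and over all transcripts 5 A2 transcripts were. The share of the gliosis table with a lower 24 h to 3 h fold than Sphk1 went from 6.49% to 3.90% with 1 count added. With a pseudocount of 5, 2 of the 5 genes nearest to Sphk1 and 3 of those nearest to Ptgs2 remained, and without the minimum total 1 for S1pr3 and 2 for Ptgs2. The missing spread between libraries limits every value.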
